A study of Sus scrofa with 16 samples.

Results

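The transcripts of 6 enzymes of glycolysis were followed in the psoas major and the diaphragm of Iberian pigs: glucose-6-phosphate isomerase (GPI), muscle fructose bisphosphatase (FBP2), triosephosphate isomerase (TPI1), phosphoglycerate kinase (PGK1), muscle phosphoglycerate mutase (PGAM2) and lactate dehydrogenase A (LDHA). The 6 genes were chosen by name, with earlier results of these data known. The members were all probe sets of an Affymetrix porcine array whose only gene symbol in the platform annotation was one of these 6. Each gene had 1 such probe set, so that the enzymes made up 6 of 24123 probe sets. All 6 were among the 11467 probe sets that passed the filter on low values, a log2 value of at least 4 on at least 4 of 16 arrays.

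Glycolysis breaks glucose down to pyruvate and yields ATP without oxygen, and in working muscle it is fed by blood glucose and by the fibre's own glycogen. Fast fibres rely on it more than slow fibres, which draw more on oxidation in mitochondria. GPI, TPI1, PGK1 and PGAM2 catalyse reversible steps of the main path and LDHA turns pyruvate into lactate, whereas FBP2 works against the path and serves the rebuilding of glycogen from lactate.

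The samples came from 8 pigs slaughtered at 211 days of age, and each animal gave 1 array of psoas major, a loin muscle, and 1 array of diaphragm, the main breathing muscle. Restricted animals, which received 20% less feed, were numbers 2 and 3 (male) and 5 and 8 (female), and animals on the high feeding level were numbers 1 and 4 (male) and 6 and 7 (female). All were of the Iberian breed and had eaten the same pelleted diet before restriction began. The sources used here do not give when it began, nor whether the males were castrated. Values are the deposited log2 expression values, in which a difference of 1 is a doubling, and levels of different genes are not set against each other, since probes differ in response. Whole muscle was measured, so that fewer cells of a type and less RNA per cell cannot be told apart.

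The arrays were alike in overall signal. Their medians lay between 3.56 and 3.62, and between 11025 and 11163 probe sets per array were at or above 4. Arrays of the same muscle correlated at 0.956 to 0.987. Both muscles held the transcripts of striated muscle: the log2 of the summed linear level of 5 fibre genes (CKM, DES, TTN, TNNC2, TCAP) was 16.52 to 16.69 in psoas and 16.50 to 16.63 in diaphragm. Array maxima were 15.7 to 15.9, and differences of probe sets close to that upper end can be compressed. The highest values of LDHA (14.69), PGAM2 (14.46) and PGK1 (13.91) lay within 2 log2 units of it.

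Psoas was compared with diaphragm in all 8 animals. Of the 6 enzymes, 5 were higher in psoas at an adjusted p under 0.05, by 1.14-fold to 1.62-fold: GPI, TPI1, PGK1, PGAM2 and LDHA. FBP2 differed by less than its error. None was lower. The 6 enzymes had a median log2 difference of 0.48, against 0.04 over the 4571 tested genes. Of all tested probe sets, 14.6% were higher in psoas by the same rule. In GPI, PGK1 and PGAM2 the 8 psoas arrays lay wholly above the 8 diaphragm arrays, which held for 2.08% of tested probe sets. In GPI, TPI1, PGK1 and PGAM2 psoas was higher in 8 of 8 animals, as in 11.7% of tested probe sets. Since the members were chosen with earlier results of these data known, these shares and medians describe them and are no test of the set.

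**Figure D1:**
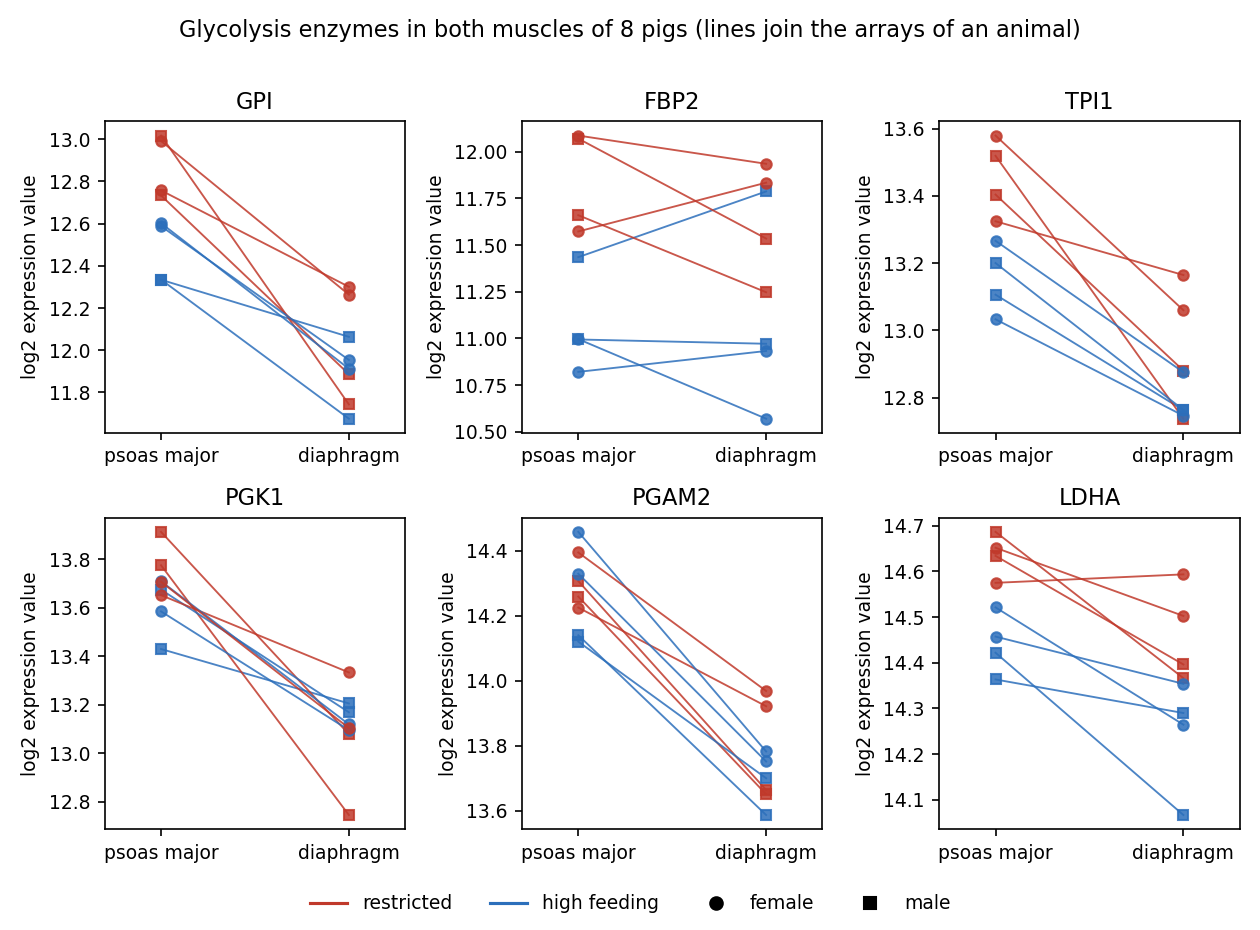
Log2 expression of the 6 glycolysis enzymes in psoas (left of each panel) and diaphragm (right), with 1 line per animal and colour for feeding level. The lines of GPI, TPI1, PGK1 and PGAM2 lie higher at the psoas end in 8 of 8 animals, while those of FBP2 run in both directions.

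GPI interconverts glucose 6-phosphate and fructose 6-phosphate, where glucose and glycogen enter the common path. Its log2 level in psoas had a lowest value of 12.33, a median of 12.67 and a highest of 13.02, and in diaphragm a lowest of 11.68, a median of 11.93 and a highest of 12.30. The muscles did not overlap, although the lowest psoas values (12.33 in animals 1 and 4) came close to the highest diaphragm value (12.30 in animal 5). The mean was 12.67 ± 0.26 in psoas and 11.97 ± 0.22 in diaphragm (SD, n = 8 each), a difference of 0.70 ± 0.09 (SE, 1.62-fold, limma adjusted p = 1.2e-04). Within animals it reached from 0.27 in animal 1 to 1.27 in animal 3.

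FBP2 removes a phosphate from fructose bisphosphate in muscle, the reverse of the phosphofructokinase step. Its log2 level in psoas had a lowest value of 10.82 (animal 7), a median of 11.50 and a highest of 12.09 (animal 8), and in diaphragm a lowest of 10.57 (animal 6), a median of 11.39 and a highest of 11.94 (animal 8). The muscles overlapped over nearly their whole range, and psoas was higher in 5 of 8 animals. The mean was 11.45 ± 0.49 in psoas and 11.35 ± 0.50 in diaphragm (SD, n = 8 each). The difference of 0.10 had a 95% interval of -0.25 to 0.45 (limma adjusted p = 0.67), so that a change of up to about the size seen in TPI1 could not be told from none.

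TPI1 interconverts the triose phosphates made by aldolase. Its log2 level in psoas had a lowest value of 13.03, a median of 13.30 and a highest of 13.58, and in diaphragm a lowest of 12.74, a median of 12.82 and a highest of 13.16. The muscles overlapped, because the diaphragm of the restricted females (13.16 in animal 5, 13.06 in animal 8) reached into the psoas range of animals 1 (13.11) and 7 (13.03). Within each animal psoas was higher, by 0.16 in animal 5 up to 0.78 in animal 3. The difference was 0.43 ± 0.07 (SE, 1.35-fold, limma adjusted p = 7.8e-04).

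PGK1 makes the first ATP of the path. Its log2 level in psoas had a lowest value of 13.43, a median of 13.69 and a highest of 13.91, and in diaphragm a lowest of 12.75, a median of 13.11 and a highest of 13.33. The muscles did not overlap. The lowest diaphragm value, of animal 2, stood apart from the other 7, of which the next was 13.08, and the same animal had the largest difference between its muscles (1.03). The mean difference was 0.57 ± 0.09 (SE, 1.49-fold, limma adjusted p = 3.8e-04), and 0.51 (adjusted p = 0.0012) without that animal.

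PGAM2, the mutase of striated muscle, moves the phosphate group of phosphoglycerate. Its log2 level in psoas had a lowest value of 14.12, a median of 14.28 and a highest of 14.46, and in diaphragm a lowest of 13.59, a median of 13.73 and a highest of 13.97. No array of one muscle lay within the range of the other. The difference of 0.53 ± 0.06 (SE, 1.44-fold) had the smallest adjusted p of the 6 enzymes (limma, 3.6e-05). Within animals it lay between 0.30 and 0.68.

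LDHA is the lactate dehydrogenase subunit that prevails in fast muscle. Its log2 level in psoas had a lowest value of 14.36, a median of 14.54 and a highest of 14.69, and in diaphragm a lowest of 14.07, a median of 14.36 and a highest of 14.59. The muscles overlapped, and psoas was higher in 7 of 8 animals, animal 5 being the exception at -0.02. The difference was 0.18 ± 0.06 (SE, 1.14-fold, limma adjusted p = 0.029). The call was lost once animal was added as a block (adjusted p = 0.051), without covariates (0.099), and without animal 2 (0.081), 3 (0.094), 4 (0.075), 7 (0.066) or 8 (0.051).

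The same contrast was run within each feeding level. Under restriction, 4 of 6 enzymes were higher in psoas (GPI, TPI1, PGK1 and PGAM2), against 5.03% of tested probe sets. At the high level the same 4 were higher, against 4.39% of tested probe sets. Under restriction the log2 difference was 0.83 ± 0.12 for GPI (SE, limma adjusted p = 0.0014), 0.70 ± 0.12 for PGK1 (0.0035), 0.50 ± 0.10 for TPI1 (0.010) and 0.50 ± 0.09 for PGAM2 (0.0042). At the high level it was 0.56 ± 0.12 for GPI (adjusted p = 0.015), 0.45 ± 0.12 for PGK1 (0.033), 0.36 ± 0.10 for TPI1 (0.043) and 0.56 ± 0.09 for PGAM2 (0.0023). LDHA did not pass in either, with 0.17 under restriction (adjusted p = 0.21) and 0.20 at the high level (0.16).

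At the high level PGAM2 kept its call in 16 of 16 alternatives, while those of GPI, PGK1 and TPI1 depended on single animals. Without animal 1, 2 of the 6 enzymes passed, and without animal 4, 6 or 7 only PGAM2 did. TPI1 at the high level lost its call in 9 of 16 alternatives, among them leaving out any single animal but number 5, a block for animal (adjusted p = 0.052) and arrays centred on their medians. Under restriction TPI1 was the only one of the 4 to miss the threshold in any alternative, without animal 2 (adjusted p = 0.070) or 3 (0.097) and with a covariate for RNA quality.

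Whether the difference between the muscles depended on feeding was tested on the difference within each animal. The dependence, restricted minus high, was 0.26 for GPI (95% interval -0.18 to 0.71, limma adjusted p = 0.85) and 0.24 for PGK1 (-0.16 to 0.65, adjusted p = 0.85). It was 0.13 for TPI1, 0.21 for FBP2, -0.06 for PGAM2 and -0.03 for LDHA, with adjusted p of 0.905 or more for all 4. No enzyme was called, nor was any of the tested probe sets (0%), and at an unadjusted p under 0.05 none of the 6 passed, against 6.07% of tested probe sets. The intervals of GPI and PGK1 did not exclude a dependence as large as the muscle difference itself.

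Restricted animals were compared with animals on the high level on the mean of each animal's 2 arrays. No enzyme was called, and no tested probe set was either (0%). At an unadjusted p under 0.05, 4 of 6 enzymes were higher under restriction (GPI, FBP2, TPI1 and LDHA), against 5.39% of tested probe sets. All 6 differences were positive, with a median of 0.22, against -0.05 over tested genes. In GPI, TPI1 and LDHA the 4 restricted animals lay wholly above the 4 on the high level, which held for 2.66% of tested probe sets. The members vary together across arrays, so that these counts are not 6 separate observations. They were also chosen with earlier results of these data known, so that the counts are descriptions only.

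FBP2 had the largest difference of the 6. In psoas its log2 levels were 12.07, 11.66, 11.57 and 12.09 in the restricted animals 2, 3, 5 and 8, against 11.44, 10.99, 11.00 and 10.82 in animals 1, 4, 6 and 7 on the high level. The groups did not overlap, and the gap lay between animals 5 and 1. The mean was 11.85 ± 0.27 in restricted psoas and 11.06 ± 0.26 in psoas at the high level (SD, n = 4 each), a difference of 0.79 ± 0.18 (SE, 1.72-fold, 95% interval 0.38 to 1.19). The unadjusted p was 0.0022 and the adjusted p 0.32 (limma).

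In diaphragm FBP2 was at 11.54, 11.25, 11.83 and 11.94 in the restricted animals 2, 3, 5 and 8, and at 11.79, 10.97, 10.57 and 10.93 in animals 1, 4, 6 and 7 on the high level. The groups overlapped through animal 1 alone, which was high in its diaphragm and the highest of its group in psoas. The difference was 0.57 ± 0.28 (SE, 95% interval -0.07 to 1.21, limma unadjusted p = 0.073 and adjusted p = 0.55). Over both muscles it was 0.68 ± 0.20 (SE, 1.60-fold, limma unadjusted p = 0.0093, adjusted p = 0.30), and 0.87 without animal 1 (unadjusted p = 4.8e-04, adjusted p = 0.12). The latter was the strongest of 16 alternatives, in which the difference reached down to 0.55 and the adjusted p up to 0.63.

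GPI in psoas was at 12.73, 13.02, 12.76 and 12.99 in the restricted animals 2, 3, 5 and 8, against 12.33, 12.33, 12.59 and 12.60 in animals 1, 4, 6 and 7 on the high level. All restricted animals were above all others, and on the high level the males were below the females. The difference was 0.41 ± 0.12 (SE, 1.33-fold, limma unadjusted p = 0.0090, adjusted p = 0.32). In diaphragm GPI was at 11.89, 11.74, 12.30 and 12.26 in the restricted animals and at 12.06, 11.68, 11.95 and 11.91 on the high level. There the groups overlapped, with the restricted females highest and the restricted males inside the other range, and the difference was 0.15 (unadjusted p = 0.30).

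TPI1 in psoas was at 13.40, 13.52, 13.32 and 13.58 in the restricted animals 2, 3, 5 and 8, against 13.11, 13.20, 13.27 and 13.03 in animals 1, 4, 6 and 7 on the high level. The groups did not overlap, and the difference was 0.31 ± 0.11 (SE, limma unadjusted p = 0.025, adjusted p = 0.39). In diaphragm it was at 12.88, 12.74, 13.16 and 13.06 in the restricted animals and at 12.76, 12.76, 12.88 and 12.75 on the high level. Here too the restricted females were highest and restricted male 3 was lowest of all 8, and the difference was 0.17 (unadjusted p = 0.13).

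LDHA was the only enzyme of the 6 whose feeding groups stood apart in both muscles. In psoas it was at 14.63, 14.69, 14.57 and 14.65 in the restricted animals 2, 3, 5 and 8, against 14.36, 14.42, 14.46 and 14.52 in animals 1, 4, 6 and 7 on the high level. In diaphragm it was at 14.40, 14.37, 14.59 and 14.50 in the restricted animals, against 14.29, 14.07, 14.35 and 14.26 on the high level. The gap in diaphragm was narrow, between animals 3 and 6. The differences were 0.20 in psoas (limma unadjusted p = 0.072) and 0.22 in diaphragm (0.049), and neither passed after adjustment (0.48 and 0.52). With a covariate for RNA quality, LDHA in diaphragm no longer had an unadjusted p under 0.05.

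PGK1 and PGAM2 had the smallest estimates between feeding levels over both muscles. PGK1 in psoas was at 13.77, 13.91, 13.65 and 13.71 in the restricted animals, against 13.43, 13.67, 13.58 and 13.71 on the high level, with overlap. PGAM2 in psoas was at 14.26, 14.31, 14.23 and 14.39 in the restricted animals, against 14.14, 14.12, 14.33 and 14.46 on the high level, where the females were above 3 of the 4 restricted animals or more. Over both muscles the difference was 0.04 for PGK1 (95% interval -0.16 to 0.24) and 0.07 for PGAM2 (-0.11 to 0.24). These intervals leave out the estimate for FBP2 (0.68), whose own interval was 0.22 to 1.14. They hold the estimates for TPI1 (0.24) and LDHA (0.21), so that a smaller response than theirs was not shown.

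By muscle, 4 of 6 enzymes did not overlap between feeding levels in psoas (GPI, TPI1, FBP2 and LDHA), against 2.42% of tested probe sets. In diaphragm LDHA alone did not, against 2.19%. At an unadjusted p under 0.05 there were 3 of 6 in psoas (background 4.48%) and 1 of 6 in diaphragm (background 4.16%), and 0 of 6 after adjustment in both.

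**Figure D2:**
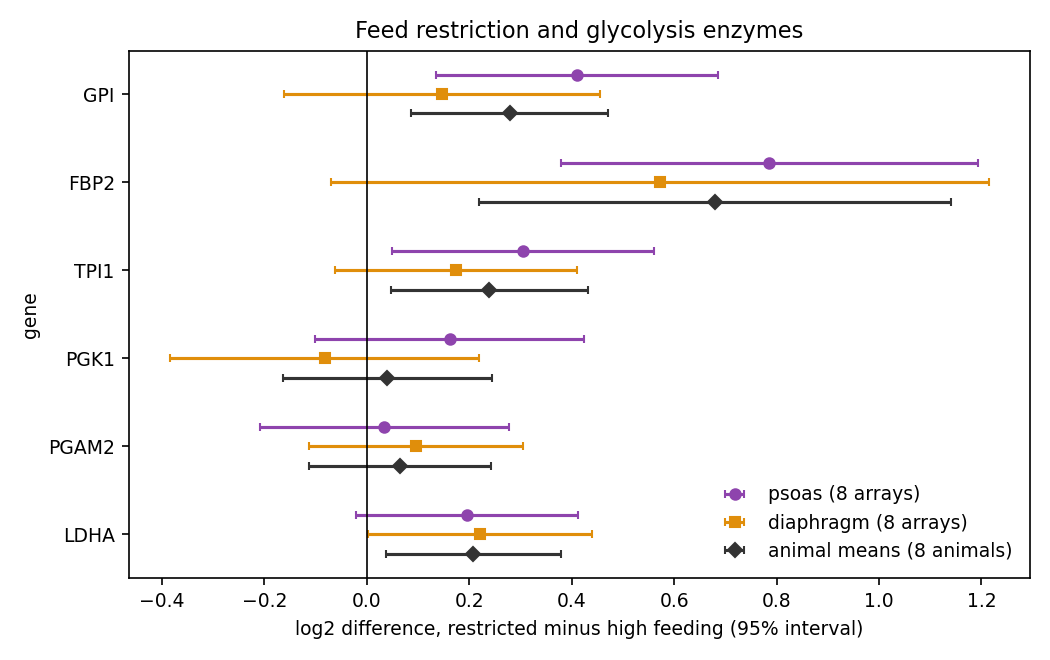
Restricted minus high feeding (log2) for each enzyme in psoas, in diaphragm and over animal means, as the limma estimate with its 95% interval. The intervals of FBP2, GPI and TPI1 in psoas lie above 0, and those of PGK1 and PGAM2 hold 0 in all 3.

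Set in order of mean level, the 4 combinations of muscle and feeding fell into different patterns. For GPI the order was restricted psoas (12.88), psoas at the high level (12.46), restricted diaphragm (12.05) and diaphragm at the high level (11.90), and only the last 2 neighbours overlapped. TPI1 had the same order, with overlap between psoas at the high level and restricted diaphragm and between the diaphragm groups. PGAM2 also had this order, but the only neighbours apart were psoas at the high level (14.26) and restricted diaphragm (13.80). PGK1 was also apart between psoas at the high level (13.60) and the diaphragm groups, of which diaphragm at the high level (13.15) and restricted diaphragm (13.07) overlapped.

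FBP2 and LDHA were not ordered by muscle. For FBP2 the restricted groups came before the others, at 11.85 in psoas and 11.64 in diaphragm, against 11.06 in psoas and 11.07 in diaphragm at the high level, and all neighbours overlapped. For LDHA restricted diaphragm (14.46) and psoas at the high level (14.44) did not differ beyond their spread, with restricted psoas (14.64) above them and diaphragm at the high level (14.24) below.

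**Figure D3:**
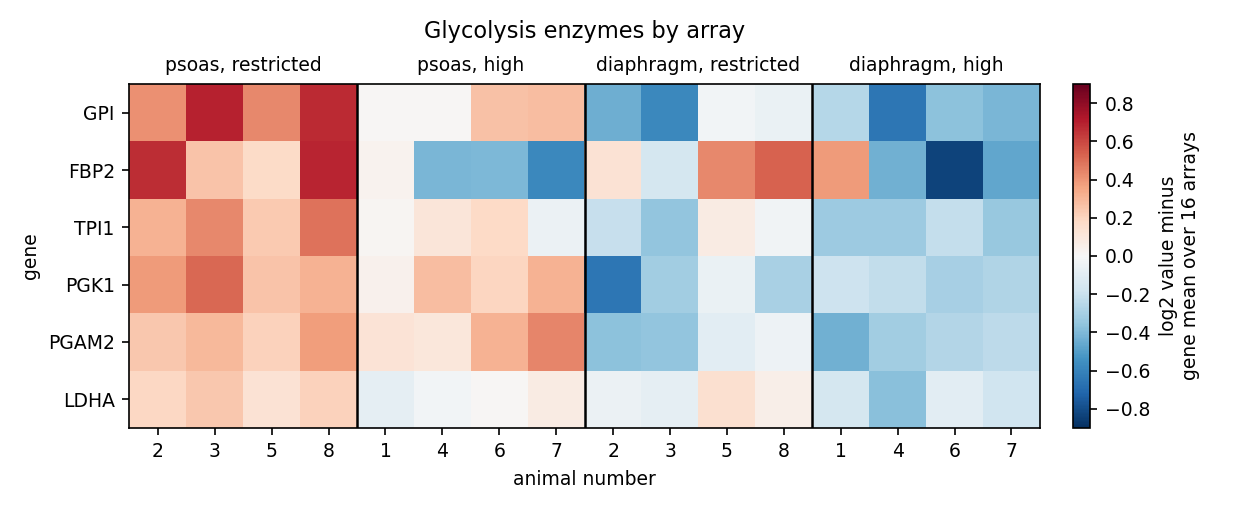
Log2 value of each enzyme minus its mean over 16 arrays, with arrays in columns by muscle, feeding level and animal. Restricted psoas holds the highest values of GPI, TPI1, PGK1 and LDHA, and FBP2 is low in most arrays of the high feeding level in both muscles.

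Females were compared with males on the animal means. No enzyme was called (0 of 6), against 0.183% of tested probe sets. GPI averaged 12.42 ± 0.19 in females and 12.22 ± 0.16 in males (SD, n = 4 each), a difference of 0.20 ± 0.08 (SE, limma unadjusted p = 0.046, adjusted p = 0.54). PGAM2 averaged 14.10 ± 0.06 in females and 13.93 ± 0.05 in males, and every female mean (14.04 or more) was above every male mean (13.99 or less), with an adjusted p of 0.55. PGAM2 was 1 of 6 to be so separated, against 2.22% of tested probe sets. The other 4 differences lay between -0.12 for FBP2 and 0.09 for LDHA. The dependence of the muscle difference on sex, female minus male, was negative for all 6 enzymes, from -0.06 for PGAM2 to -0.18 for TPI1, with adjusted p of 0.721 or more, and none was called here or among all tested probe sets (0%, and 10.1% at an unadjusted p under 0.05).

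Other genes of glycolysis were taken from a list of 29, of which 19 were on the array and 11 were tested. Between the muscles 3 were higher in psoas, 1 was lower and 7 did not pass, with a median of -0.09. Over all tested genes, 793 of 4571 (17.3%) were higher and 556 lower. BPGM, which makes the mutase cofactor bisphosphoglycerate, was at 8.14 ± 0.26 in psoas and 6.75 ± 0.52 in diaphragm (SD, n = 8 each), higher in 8 of 8 animals by 1.39 ± 0.18 (SE, 2.62-fold, limma adjusted p = 1.2e-04). PFKM, the muscle phosphofructokinase and main control point of the path, was higher by 0.57 ± 0.10 (SE, adjusted p = 8.1e-04, 8 of 8 animals). ENO3, the enolase of striated muscle, was higher by 0.21 ± 0.06 (adjusted p = 0.014, 7 of 8 animals), a call lost without animal 3. ALDOC, the aldolase best known from brain, was lower in 8 of 8 animals by a log2 difference of -0.68 ± 0.18 (adjusted p = 0.013). Its level was low, at 5.09 in psoas and 5.76 in diaphragm, against the filter value of 4.

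Genes of the same list that did not pass include the partners of the members, named here after their values were seen. LDHB, the lactate dehydrogenase subunit of oxidative tissue, had a difference of -0.47 ± 0.17 (limma adjusted p = 0.055) and HK1, the hexokinase found in most tissues, one of -0.52 (adjusted p = 0.065). Both passed with the animal as a block, at adjusted p of 0.042 and 0.0087. HK1 was at a low level, with means of 5.49 in psoas and 6.02 in diaphragm. PKM, pyruvate kinase, differed by 0.19 (adjusted p = 0.097). GAPDH, which acts between TPI1 and PGK1, gave a different answer by probe set: the one of highest mean differed by 0.07 (adjusted p = 0.39) and 1 of the other 3 by 0.83 (adjusted p = 0.0022).

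Of 10 tested glycogen genes, 4 were higher in psoas, 1 was lower and 5 did not pass, against 17.3% higher over all tested genes. UGP2, which makes the glucose donor for glycogen, was higher by 0.51 (limma adjusted p = 0.019), PGM1, which links glycogen to GPI's substrate, by 0.28 (0.016), glycogen synthase GYS1 by 0.47 (0.048) and PHKB, a subunit of phosphorylase kinase, by 0.28 (0.0499). PPP1R3B, a glycogen-targeting subunit of protein phosphatase, was lower in 8 of 8 animals (-0.79 ± 0.19 SE, adjusted p = 0.0081). Several of these calls were lost in other settings: that of GYS1 in 12 of 17, among them the animal as block (adjusted p = 0.054) and leaving out animal 1, 2, 3, 4, 5 or 8, that of PHKB in 10 of 17, among them leaving out any animal but number 1, and that of PGM1 in 4 of 17, among them leaving out animal 2, 3 or 4. The call of UGP2 was also lost in 4 of 17: without animal 2, with animals 4, 6, 7 and 8 alone, with a covariate for RNA quality (adjusted p = 0.091) and with the mean of its probe sets (0.0504), of which the second differed by 0.37 (adjusted p = 0.13). GYS1 also had a second tested probe set, at a low mean of 4.34, which differed by 0.06 (limma adjusted p = 0.86), and its call was lost with the mean of its probe sets.

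Of 13 tested genes for movement of glucose, lactate and pyruvate, 2 were higher in psoas and none was lower. That is about the share of all tested genes, of which 17.3% were higher. SLC16A3, the transporter that exports lactate from fast fibres, was higher by 0.89 ± 0.28 (SE, 1.86-fold, limma adjusted p = 0.027) in 7 of 8 animals, and the sugar transporter SLC2A12 by 0.56 ± 0.10 (SE, adjusted p = 0.0011) in 8 of 8. The call of SLC16A3 was lost without a filter and without animal 2, 3, 6 or 7. None of 6 tested regulators was called between the muscles, EPAS1 (-0.68, adjusted p = 0.066) and HIF1A (-0.22, adjusted p = 0.20), both factors of the oxygen response, having the smallest p. At the high feeding level alone EPAS1 was lower in psoas (-1.23, adjusted p = 0.034). The level of EPAS1 was low, at 5.68 in psoas and 6.36 in diaphragm over all animals. Within the feeding levels, BPGM was called in both (1.56 under restriction, adjusted p = 0.0024, and 1.22 at the high level, 0.013). PFKM (0.69, 0.0070), SLC2A12 (0.72, 0.0055) and glycogenin GYG1 (0.35, 0.043) were called under restriction, and ALDOC (-0.87, 0.0495) at the high level. The calls of EPAS1, GYG1 and ALDOC were lost in 5, 7 and 9 of the alternatives, mostly when 1 animal was left out. That of PFKM was lost without animal 2, and that of BPGM at the high level without animal 1, 4 or 7.

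**Figure D4:**
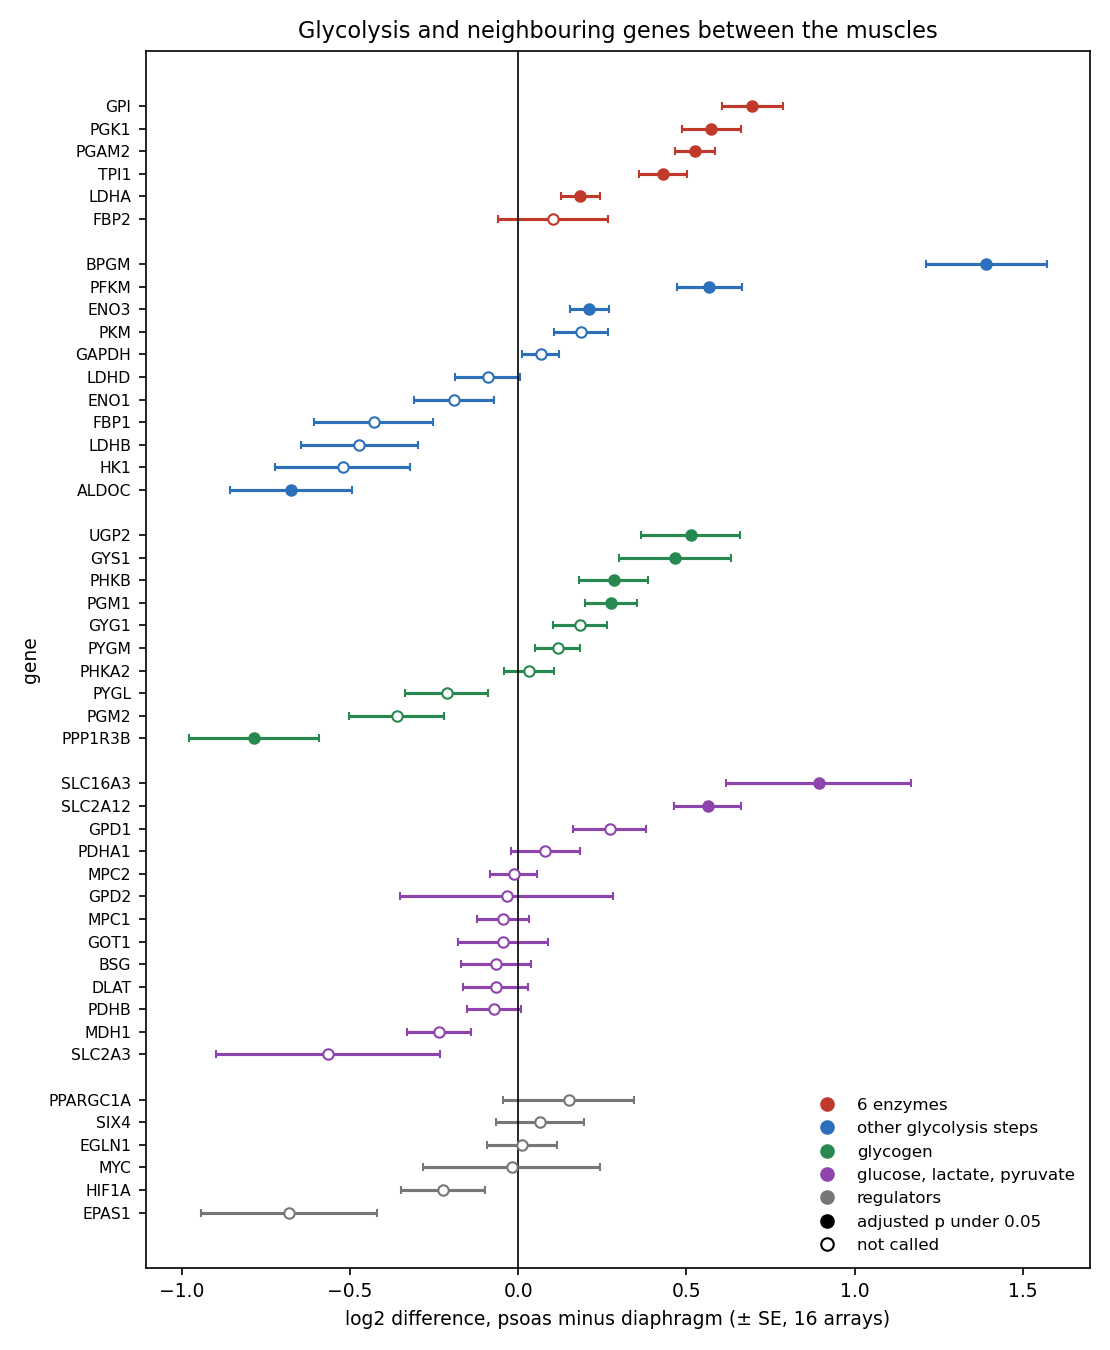
Psoas minus diaphragm (log2, limma estimate ± SE) for the 6 enzymes and the tested genes of the other pathway lists. The estimates of the 6 enzymes lie above 0, and the other lists hold genes on both sides of 0, from BPGM at 1.39 to PPP1R3B at -0.79.

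No gene of these 4 lists was called between feeding levels or sexes. The smallest p under restriction were those of HK1 (-0.64, unadjusted p = 0.031) and ENO1 (0.31, 0.052) among glycolysis genes and of GYS1 (-0.24, 0.12) and PYGL (-0.22, 0.15) among glycogen genes. Among movement genes they were those of MPC2, part of the mitochondrial pyruvate carrier (-0.25, 0.013), and GPD2, of the glycerol phosphate shuttle (0.94, 0.017), and among regulators those of SIX4 (0.39, 0.043) and PPARGC1A (-0.31, 0.17). Their adjusted p by limma were 0.308 or more. GPD2 was at a low level, with means of 5.54 under restriction and 4.60 at the high level. Between females and males the smallest belonged to GOT1 (-0.40, unadjusted p = 0.019) and DLAT (-0.27, 0.033) among movement genes and to MYC (-0.92, 0.015) and SIX4 (0.39, 0.040) among regulators. In the other lists they belonged to BPGM (0.36, 0.090), FBP1 (0.27, 0.22), PGM1 (0.16) and PHKB (0.19).

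Fibre genes moved with the muscle difference. MYH2, the myosin of fast oxidative fibres, was at 15.26 ± 0.18 in psoas and 12.52 ± 0.39 in diaphragm (SD, n = 8 each), and ATP2A1, the calcium pump of fast fibres, was higher by 0.98 (limma adjusted p = 8.3e-05). In psoas 5 of 8 tested fast fibre genes were higher and 6 of 9 tested slow fibre genes were lower. Over all 4571 tested genes, 793 were higher and 556 lower. MYH7, the slow myosin, differed by -0.16 (adjusted p = 0.097), and MYH1, MYH4 and ACTN3 were not among the tested genes. The log2 of the summed level of the fast genes was 17.65 to 17.87 in psoas and 17.18 to 17.46 in diaphragm, and of the slow genes 17.01 to 17.54 in psoas and 17.44 to 17.56 in diaphragm. Their part in the enzymes' difference was not tested. Between feeding levels 0 of the 8 fast and 0 of the 9 slow genes passed even without adjustment, in either muscle or over both.

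Most marker genes of other cells were also lower in psoas, by the same rule in 6 of 7 endothelial, 5 of 6 immune, 3 of 5 fibroblast, 3 of 5 adipocyte and 7 of 7 hepatocyte genes, and in 0 of 2 erythrocyte genes. The fibroblast gene COL3A1 alone was higher. Over all tested genes, 556 of 4571 were lower in psoas. The log2 of the summed level of 7 endothelial genes was 9.96 to 10.6 in psoas and 10.7 to 11.3 in diaphragm, and of 6 immune genes 9.69 to 10.6 in psoas and 10.4 to 11.4 in diaphragm, with overlap. For 5 fibroblast genes it was 11.6 to 12.4 in psoas and 12.5 to 13.2 in diaphragm. For 5 adipocyte genes it was 11.1 to 11.8 in psoas, where ADIPOQ was below 4 on every array, and 12.0 to 12.7 in diaphragm. For 7 hepatocyte genes it was 6.93 to 7.85 in psoas, where ALB, APOC3, TF, HP and FGB were below 4 on every array, and 8.02 to 11.4 in diaphragm. The sum of 2 erythrocyte genes overlapped, at 7.74 to 8.22 in psoas and 7.59 to 8.51 in diaphragm. Their part in the muscle difference was not tested. By feeding level, each of these sums overlapped within psoas and within diaphragm.

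RNA quality, as read from the actin controls, also differed in mean between the muscles. The actin control probe sets differed between 3' and 5' ends by 3.45 ± 0.25 in psoas and 3.81 ± 0.45 in diaphragm (SD, n = 8 each, log2). The ranges overlapped (3.07 to 3.85 and 3.35 to 4.33), and in animals 4 and 7 psoas had the larger value. For the GAPDH controls the same measure was -0.10 ± 0.05 in psoas and -0.05 ± 0.10 in diaphragm. With the actin difference as a covariate, GPI, TPI1, PGK1, PGAM2 and LDHA kept their calls between the muscles. Within psoas the actin difference was 3.07 to 3.71 in restricted animals and 3.29 to 3.85 at the high level. With it as a covariate, FBP2 (log2 difference 0.65) and GPI (0.38) kept an unadjusted p under 0.05 in limma between feeding levels there, and TPI1 did not. With only animals 4, 6, 7 and 8, taken because their diaphragm arrays had the lower actin difference, 3 of 6 enzymes passed between the muscles (GPI, PGK1 and PGAM2). In that smaller fit 405 of 11467 tested probe sets were called in either direction. Of its animals, only number 8 was restricted and only number 4 was male. RNA quality, fewer animals and this make-up cannot be told apart as sources of the lost calls.

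The enzymes varied together across arrays. The 15 pairs correlated at 0.16 to 0.94 over 16 arrays (median 0.82), at 0.07 to 0.84 over the 8 diaphragm arrays (median 0.59) and at -0.00 to 0.95 over the 8 psoas arrays (median 0.64). GPI and TPI1 had the highest value over all arrays (0.94), and GPI and LDHA the highest within psoas (0.95). FBP2 correlated over 16 arrays at 0.16 with PGAM2, 0.19 with PGK1, 0.45 with GPI, 0.50 with TPI1 and 0.57 with LDHA. Within psoas it correlated at 0.80 with TPI1, 0.68 with LDHA and 0.64 with GPI. After the fitted muscle, sex and feeding effects were removed, the pairs correlated at 0.11 to 0.68 (median 0.41). The values share arrays, animals and normalization.

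Among the other 4565 tested genes, those most like the mean of the enzymes over 16 arrays were DDB2 (Pearson r = 0.911), SGCD (0.894), CNN1 (0.892), ATIC (0.888) and RPS2 (0.876). After the fitted effects were removed they were MT-2B (0.806), RXRG (0.793), PIGS (0.780), SH3BGR (0.769) and HTRA1 (0.768). For single enzymes the gene most alike was CNN1 for GPI (0.936) and for TPI1 (0.911), HOXA9 for PGK1 (0.940), ATP2A1 for PGAM2 (0.949), PBLD for FBP2 (0.787) and CELF2 for LDHA (0.938). FBP2 had the lowest such value of the 6. These are descriptions over 16 arrays that share animals and muscles.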

How the data were processed

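Total RNA of each muscle was hybridised to Affymetrix porcine arrays. The authors deposited log2 expression values in 1 table, made by GCRMA according to the submitters' processing notes. Neither its version nor a statement on joint processing of the arrays is given in the sources used here. Since GCRMA makes the distributions of arrays alike, a shift shared by most genes is removed. The values were not scaled again. The platform annotation gave 1 gene symbol for 10099 probe sets, more than 1 for 198 and no symbol for 13826. A gene stood by its tested probe set of highest mean.

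The filter described with the results left 11467 probe sets (5830 with 1 symbol, 4571 genes), without 124 control probe sets. Linear models were fitted with limma 3.58.1 (lmFit, eBayes, R 4.3.3). P-values were adjusted by Benjamini-Hochberg over all tested probe sets, and a call needed an adjusted p under 0.05. The muscle contrast used 16 arrays with covariates for sex and feeding level, and was repeated within each feeding level. Feeding levels and sexes were set against each other on animal means, feeding levels also within each muscle, with the other factor as covariate. Dependence of the muscle difference on feeding or sex was tested on differences within animals. The method was also run on simulated data with known changes. The outcome of that run is not given here, so that nothing about the differences of the enzymes is concluded from it. P-values measure the spread between these animals, and the number of arrays limits the precision.

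Pairing came from the labels' animal numbers, and entered the animal means, the differences within animals and the block, but not the main muscle fits. With the fitted effects taken out, an animal's 2 arrays correlated at 0.0724 to 0.257 over probe sets, all positive. Alternatives were the animal as a block, other filters, covariates and scaling, a variance trend, the mean over a gene's probe sets, and leaving out each animal.

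The members and lists were chosen with earlier results of these data known. Named were all members, each gene of the 4 pathway lists called in a comparison or, where a list had no call, the 2 of smallest p, the genes most like the members, and 5 fibre genes where tested. ATP2A1 as a fibre gene and HK1, GAPDH, PKM and LDHB were added after their values were seen.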

Additional observations from a re-analysis of the deposited data

Results flagged for a closer look

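Of 36 groups of 4 or 8 arrays of the 6 enzymes, 2 held a sample far from the others, against about 1 in 20 groups by chance. PGK1 in the diaphragm of animal 2, a restricted male, was at 12.75 (log2), below the other 7 diaphragm arrays, which lay at 13.08 to 13.33. TPI1 in the diaphragm of animal 6, a female on the high level, was at 12.88, above the other 3 arrays of that group, which lay at 12.75 to 12.76.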

How the results depend on the processing

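Of 858 values of the enzymes under other settings, 815 kept their direction and side of the threshold, 28 lost a call, none gained one and 15 changed sign. Only results called in the main fit could lose a call, so that for most of the 858 the same side means still not called. Between the muscles, animals 4, 6, 7 and 8 alone gave 405 probe sets called, 3 enzymes higher, and 2 other pathway genes higher with 0 lower. The count of other pathway genes lower was 6 with the actin difference as covariate and 6 with the animal as a block. Counts of probe sets called at the high feeding level were 574 without a filter and 1677 with the block, and under restriction 671 without a filter, 387 with the actin covariate and 1838 with the block. Between feeding levels, 2 probe sets were called in psoas without a filter. In diaphragm 1 was called without a filter, 1 at log2 6 or above and 2 without covariates, and the count of enzymes at an unadjusted p under 0.05 was 0 at log2 6 or above, without covariates and with the actin covariate. Females and males differed in 39 probe sets with the block, which changed no call of a named gene other than those of LDHA, GYS1, HK1, LDHB and, at the high level, TPI1. Of 703 values of other named genes, 624 kept their direction and call, 66 lost a call, 13 gained one and none changed sign. ALDOC, GPD2, FBP1 and MYC did not pass the filter of log2 6 or above on 4 arrays, and so had no estimate in that setting.

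Leaving out 1 animal gave 2162 to 2906 probe sets called between the muscles, 4 to 5 enzymes higher, and 4 to 8 other pathway genes higher with 2 to 4 lower. At the high level it gave 282 to 877 probe sets and 1 to 4 enzymes, and under restriction 303 to 1419 probe sets and 3 to 4 enzymes. Between feeding levels 0 to 1 probe sets were called over animal means, 0 to 1 in psoas and 0 to 2 in diaphragm, with 3 to 4, 2 to 3 and 0 to 3 enzymes at an unadjusted p under 0.05. Between sexes 13 to 23 probe sets were called.

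Signs changed where estimates were near 0. Without 1 animal, FBP2 at the high level lay between -0.15 and 0.11 (0.032 without animal 7), PGK1 by feeding between -0.00062 and 0.094 over animal means and between -0.17 and 0.023 in diaphragm. The dependence on feeding lay between -0.099 and 0.026 for LDHA (0.13 with the actin covariate; 0.013 and 0.024 without animals 4 and 7) and between -0.13 and 0.0031 for PGAM2. By sex, FBP2 lay between -0.26 and 0.076 and PGK1 between -0.014 and 0.080. The dependence on sex lay between -0.30 and 0.064 for FBP2 (0.0060 without animal 2), between -0.28 and 0.016 for GPI and between -0.13 and 0.0043 for PGAM2. The causes were not tested.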
